A study of Mus musculus with 54 samples.

Results

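The genes described here are 10 mouse genes that respond to glucocorticoids or receive them, chosen by symbol from 54232 Ensembl gene IDs in the count files. Each symbol matched exactly 1 ID. They are the receptors Nr3c1 (ENSMUSG00000024431) and Nr3c2 (ENSMUSG00000031618), the feedback genes Fkbp5 (ENSMUSG00000024222) and Tsc22d3 (ENSMUSG00000031431), the targets Sgk1 (ENSMUSG00000019970), Zbtb16 (ENSMUSG00000066687), Errfi1 (ENSMUSG00000028967) and Cebpd (ENSMUSG00000071637), and the metallothioneins Mt1 (ENSMUSG00000031765) and Mt2 (ENSMUSG00000031762). The question put to them was whether repeated dosing with Cmpd60 came with a stress readout, that is, with a change in these transcripts in any of the organs sequenced.

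Glucocorticoids such as corticosterone, the main one in mice, are released by the adrenal gland under stress and bind the glucocorticoid receptor in the cytoplasm, where heat shock proteins hold it ready. The bound receptor enters the nucleus and activates genes that dampen its own action (Fkbp5), mediate anti-inflammatory effects (Tsc22d3) and handle salt and metabolism (Sgk1), so that transcript levels of these genes are widely read as a measure of recent glucocorticoid exposure. Kidney, brain and heart carry the receptor, and in the kidney collecting duct an enzyme protects the related mineralocorticoid receptor from glucocorticoids.

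The study sequenced poly(A) RNA from mice given Cmpd60, an inhibitor of the histone deacetylases HDAC1 and HDAC2, or its vehicle by daily intraperitoneal injection for 14 days. Cmpd60 was dosed at 22.5 mg/kg. The aged mice were singly housed BL6 males of about 20 months, and the brain cohort comprised APPSWE-1349 mice on a BL6 background and their AD-control mice, 6 to 7 months old. APPSWE-1349 mice carry a transgene for the human amyloid precursor protein with the Swedish mutation.

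By group, there were 6 Kidney Cmpd60 and 5 Kidney vehicle libraries, 6 Brain Cmpd60 and 6 Brain vehicle libraries, and 5 Heart Cmpd60 and 6 Heart vehicle libraries, all from the aged mice. The brain cohort gave 4 APPSWE Cmpd60, 5 APPSWE vehicle, 5 AD-control Cmpd60 and 5 AD-control vehicle libraries. All mice, vehicle groups included, were injected every day and housed alone, and no group without injections was sequenced. A response to handling that both arms share could therefore not be seen in these comparisons. The same holds for the overnight fast and carbon dioxide euthanasia that the paper describes under the APPSWE-1349 mice. Their part in the levels was not tested. The promoter of the transgene is not named in the sources used here. Plasma corticosterone was not among the data.

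Several libraries and labels need care. The treatment field of the kidney samples disagrees with their titles and source names. The titles, which the column headings of the study's kidney table match, were followed here. With the field followed instead every kidney sign would turn, and the differences of kidney from brain and heart would change in size too. Library s139 of the brain cohort is labelled vehicle in the sample record and Cmpd60 in a table of the study, so it was placed in no group. The growth protocol gives 20 months for every sample, including the brain cohort, whose age was taken from the series description. Library totals over genes, in units of 1000000 counts, ran from 23.6 to 57.4 over the 53 assigned libraries, with a median of 28.3. In the same unit the Brain Cmpd60 libraries were deeper (29.6 to 57.4) than the Brain vehicle libraries (26.4 to 32.3). In the cohort, 5 libraries had counts in fewer genes than the rest: AD-control vehicle replicate s155 with 15044 genes, AD-control Cmpd60 replicate s152 with 15084, APPSWE vehicle replicates s140 and s146 with 15555 and 16577, and APPSWE Cmpd60 replicate s141 with 16402. The cohort library with the most had 24821. The series description gives 6 aged mice dosed with Cmpd60 and 7 with vehicle, fewer than the 17 aged libraries of each arm, so kidney, brain and heart libraries must come in part from the same mice. Which libraries share a mouse is not stated.

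The labelled tissues carried their markers. Levels throughout are in CPM, a gene's counts scaled to a library of 1000000 counts, with library sizes set by the trimmed mean of M-values (TMM). The summed CPM of 3 proximal tubule markers (Slc34a1, Lrp2, Slc5a12) was 2887 to 7783 in kidney and at most 4.12 in any other library. The sum of 3 cardiomyocyte markers (Myh6, Tnnt2, Actn2) was 48790 to 58937 in heart, and that of 3 neuronal markers (Snap25, Syt1, Rbfox3) was 3336 to 4915 in the brain libraries. These are whole-organ RNA samples, in which fewer cells of a type and less RNA per cell cannot be told apart.

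All 10 genes passed the filter on low counts in every comparison. In heart, the edgeR test called 2 of 10 (Mt1 and Mt2) at an adjusted p below 0.05, against 1.18% of 19452 genes tested. These genes are close paralogs, and the members were chosen with earlier results of these data known. The count beside the share is therefore a description and no test of the set. At the unadjusted threshold of 0.01 that the study applied to kidney and brain, 3 of 10 heart members passed against 5.34% of all genes, and below 0.05 there were 4 against 13.5%. limma-voom called 2 in heart, among 245 genes it called in all, and DESeq2 called 3 among 746. The edgeR total in heart was 229 genes.

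In kidney, edgeR called 0 of 10 at an adjusted p below 0.05, against 0.300% of 20698 genes. At unadjusted p below 0.01 there were 2 of 10 against 3.78%, and below 0.05 there were 3 against 11.3%. limma-voom and DESeq2 also called 0 in kidney, where they called 70 and 429 genes in all. Without Kidney Cmpd60 replicate 52 the edgeR count became 2 (Mt1 and Mt2). The 0.300% belongs to the full fit and not to that refit.

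In the brain comparisons edgeR, limma-voom and DESeq2 each called 0 of 10. For the aged brain the background was 0.0205% of 24438 genes at adjusted p below 0.05, 4.29% at unadjusted p below 0.01 and 13.8% below 0.05, with 0 members at each. In APPSWE brain the background was 0%, 2.03% and 9.46% of 23194 genes, again with 0 members at each. In AD-control brain it was 0%, 0.384% and 3.67%, and the members numbered 0 at each.

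The median log2 fold change of the members was 0.35 in heart, against -0.0014 over all heart genes tested. It was 0.11 in kidney against -8.01e-05, 0.04 in aged brain against 0.01, -0.04 in APPSWE brain against 0.03 and 0.01 in AD-control brain against 0.02. Positive estimates numbered 8 of 10 in kidney, 8 in aged brain, 8 in heart, 4 in APPSWE brain and 5 in AD-control brain. With library total as a covariate in aged brain, where the Cmpd60 libraries were deeper, the estimates of Fkbp5, Tsc22d3, Errfi1, Mt1 and Mt2 turned negative, from -0.01 for Fkbp5 to -0.09 for Mt1. Others moved further from 0, namely Nr3c1 (to 0.21), Nr3c2 (0.17), Zbtb16 (0.14), Cebpd (-0.17) and Sgk1 (-0.41). edgeR called 0 members in that fit, with 1 (Nr3c1) at unadjusted p below 0.05.

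**Figure D1:**
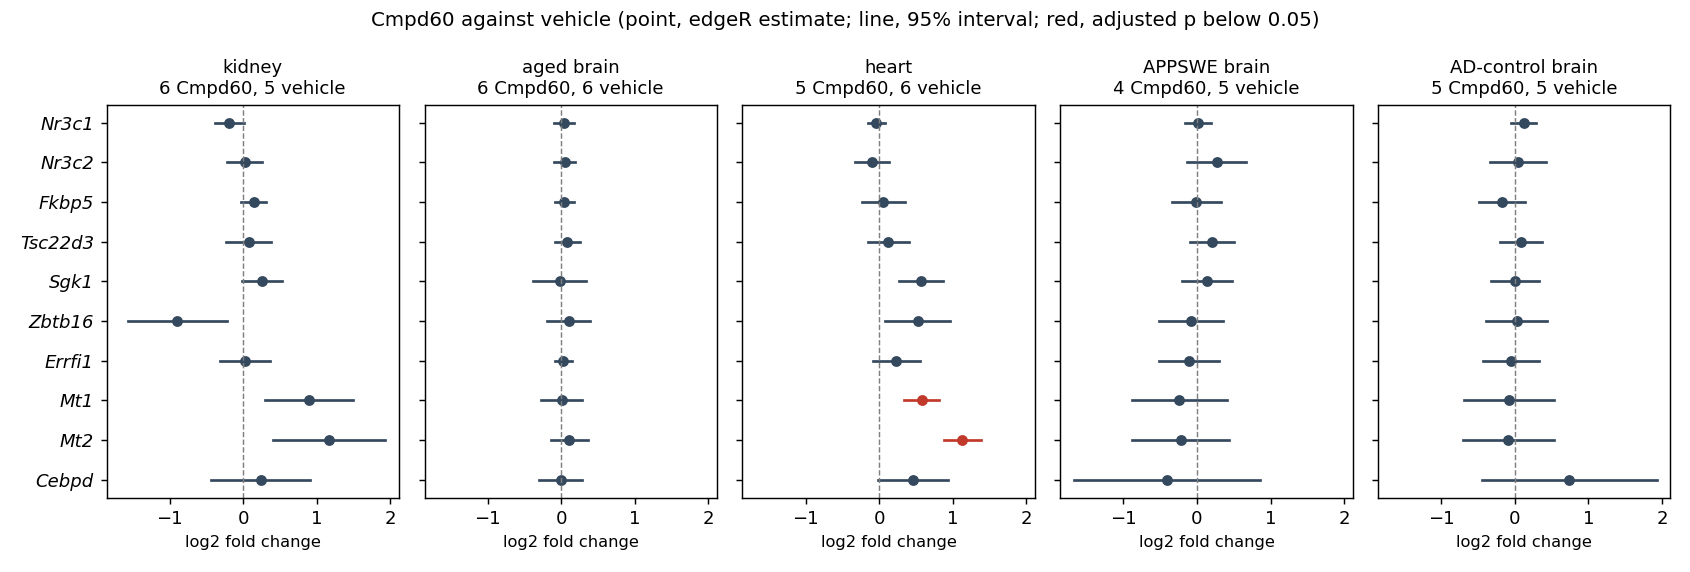
Log2 fold change of each gene, Cmpd60 against vehicle, in the 5 comparisons (points, edgeR estimates; lines, 95% intervals; red, adjusted p below 0.05). Mt1 and Mt2 in heart are the red points, at 0.58 and 1.13, and the kidney estimates of the same genes are 0.89 and 1.17 with wider intervals.

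Nr3c1 encodes the glucocorticoid receptor, which both senses the hormone and acts on the target genes. In Kidney vehicle its level was 137, 138.9, 141, 143.6 and 147 CPM, and in Kidney Cmpd60 it ran from 98.7 through a median of 128 to 143.9 CPM. Of the 6 Cmpd60 kidneys, 5 lay below every vehicle kidney, and replicate 52 lay inside the vehicle range. Nr3c1 had a log2 fold change of -0.19 (SE 0.09, 95% interval -0.39 to 0.01, adjusted p 0.472). In heart Nr3c1 read 154.2, 173, 174, 177 and 181 CPM with Cmpd60 and 166 to 185 CPM with vehicle (median 173). Those ranges overlapped, with a log2 fold change of -0.03 (interval -0.15 to 0.08).

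In the brains Nr3c1 spanned 110 to 149.1 CPM in Brain Cmpd60 against 118 to 130 CPM in Brain vehicle. The Cmpd60 group was the wider, reaching both above and below vehicle. Its log2 fold change was 0.03 in aged brain (interval -0.10 to 0.17; 0.21 with adjusted p 0.272 once library total was a covariate), 0.01 in APPSWE brain (-0.17 to 0.19) and 0.12 in AD-control brain (-0.05 to 0.29).

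Nr3c2 encodes the mineralocorticoid receptor, which binds aldosterone and, with high affinity, glucocorticoids as well. Its level ranged from 24.3 to 32.5 CPM in Kidney Cmpd60 and from 20.9 to 32.4 CPM in Kidney vehicle. The log2 fold changes were 0.02 in kidney, 0.05 in aged brain and -0.10 in heart, with intervals of -0.22 to 0.26, -0.09 to 0.19 and -0.33 to 0.14. In the AD-control brains given Cmpd60 the levels were 55.2, 59.1, 60.9, 64.3 and 105 CPM, against 64.1, 64.6, 65.04, 66.6 and 68.9 CPM with vehicle. The 105 CPM is replicate s152, a library with few genes detected, while 3 of the other 4 lay below all vehicle values. Without replicate s152 the AD-control log2 fold change became -0.20, from 0.05 with it, and it was not called in either case. In APPSWE brain it was 0.27 (interval -0.13 to 0.67, adjusted p 0.782). That estimate of Nr3c2 was 0.09 without APPSWE Cmpd60 replicate s141, 0.10 with library quality weights and 0.44 with genes detected as a covariate, and it was called in none.

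**Figure D2:**
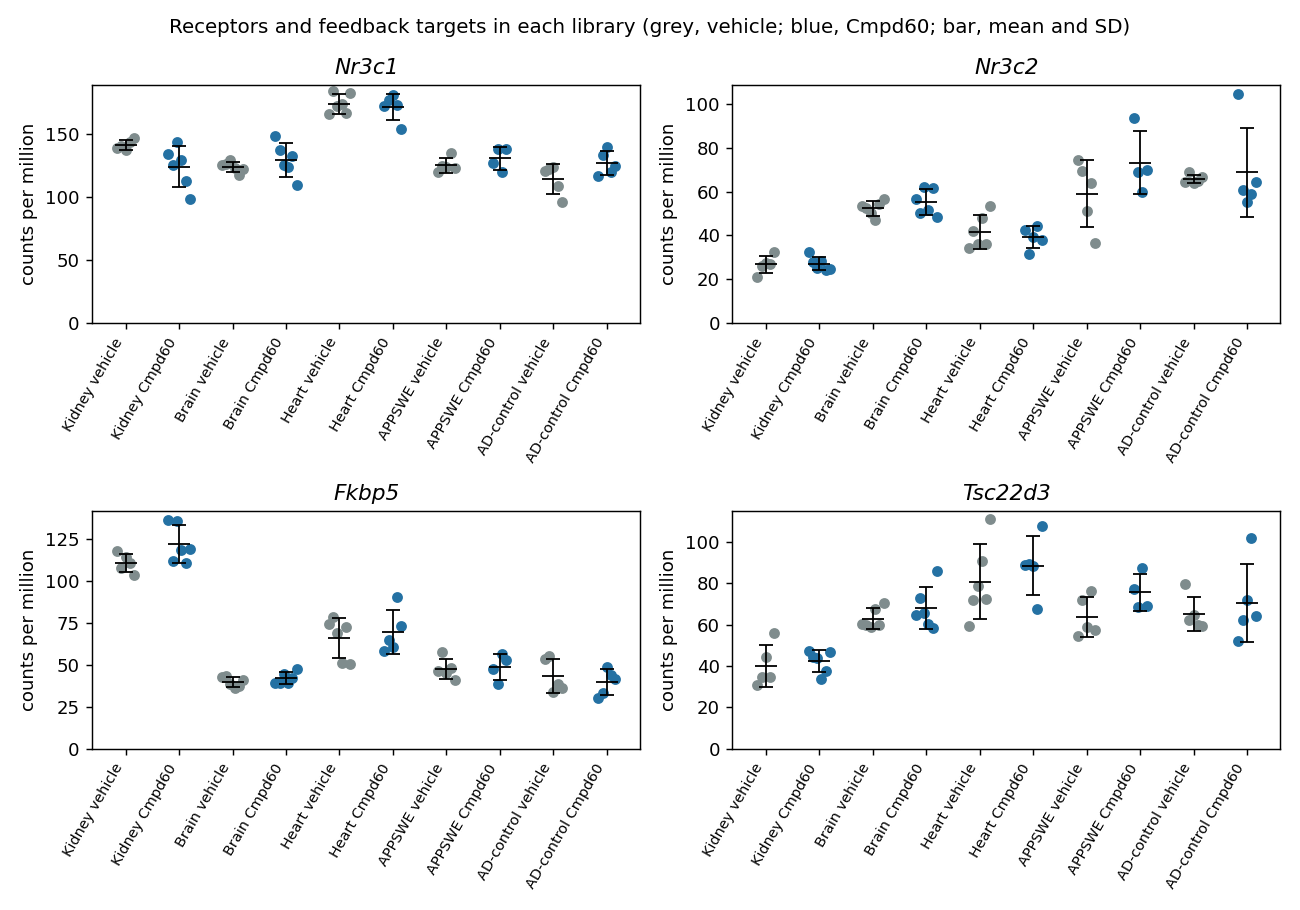
CPM of the receptors Nr3c1 and Nr3c2 and of the feedback genes Fkbp5 and Tsc22d3 in every assigned library (grey, vehicle; blue, Cmpd60; bar, mean and SD). Vehicle and Cmpd60 libraries overlap for each of the 4 genes in each of the 5 comparisons, and Fkbp5 is highest in kidney, at 104 to 137 CPM.

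Fkbp5 encodes a co-chaperone that lowers the hormone affinity of the receptor, and it is among the transcripts most used to read glucocorticoid exposure. In Kidney vehicle it stood at 104, 108, 111, 115 and 118 CPM, and in Kidney Cmpd60 between 111 and 137 CPM with a median of 119 CPM. All 6 Cmpd60 kidneys lay above the vehicle median and 4 above every vehicle kidney. For Fkbp5 in kidney the log2 fold change was 0.14 (SE 0.08, interval -0.03 to 0.32, adjusted p 0.534). In heart the Cmpd60 values of Fkbp5 were 58.3, 60.9, 65.2, 73.2 and 90.6 CPM, and the vehicle values ran from 50.7 to 78.8 CPM with a median of 70.9. The groups overlapped, with Cmpd60 replicate 71 above all vehicle hearts, and the log2 fold change was 0.06 (interval -0.23 to 0.35). It turned to -0.05 without that replicate, and leaving out 1 heart library at a time moved it between -0.05 and 0.12, with 3 of the 11 refits below 0.

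In the aged brain Fkbp5 lay between 39.1 and 47.3 CPM with Cmpd60 and between 36.1 and 43.5 CPM with vehicle. Its log2 fold change there was 0.05 with an interval of -0.08 to 0.17. In the cohort Fkbp5 was 38.8, 47.8, 52.8 and 56.4 CPM in APPSWE Cmpd60 and 40.9, 45.3, 46.2, 48.1 and 57.4 CPM in APPSWE vehicle. In AD-control mice it was 30.2, 33.4, 41.8, 43.8 and 48.9 CPM with Cmpd60 and 34.0, 35.9, 38.8, 53.6 and 55.2 CPM with vehicle. Both pairs of groups overlapped, and the log2 fold changes were -0.01 (interval -0.34 to 0.32) and -0.17 (interval -0.48 to 0.14).

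Tsc22d3, also called GILZ, encodes a leucine zipper protein that mediates anti-inflammatory actions of glucocorticoids. All 5 estimates were positive in the edgeR fit and none was called, with a negative estimate in aged brain once library total was a covariate (-0.07) and in AD-control brain with library quality weights (-0.01) or without Cmpd60 replicate s157 (-0.08). They were 0.08 in kidney (interval -0.23 to 0.38), 0.09 in aged brain (-0.08 to 0.25), 0.13 in heart (-0.15 to 0.40), 0.20 in APPSWE brain (-0.09 to 0.50) and 0.08 in AD-control brain (-0.20 to 0.36). In the APPSWE mice the levels were 68.8, 69.0, 77.5 and 87.4 CPM with Cmpd60 and 54.4, 57.3, 58.8, 71.8 and 76.2 CPM with vehicle. All 4 Cmpd60 values exceeded the vehicle median, 2 of them exceeded every vehicle value, and the adjusted p was 0.772. The APPSWE estimate of Tsc22d3 went down to 0.07 with library quality weights and to 0.14 without Cmpd60 replicate s147. With 1 library left out, the Tsc22d3 estimate ran from 0.00087 to 0.23 in kidney and from 0.03 to 0.23 in heart.

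Sgk1 encodes a kinase induced by glucocorticoids and by aldosterone that regulates sodium channels and other transporters. In Heart Cmpd60 its level was 72.5, 78.0, 82.1, 85.0 and 137 CPM, and in Heart vehicle it ran from 51.5 through a median of 61.7 to 72.8 CPM. All 5 Cmpd60 hearts were above the vehicle median and 4 above every vehicle heart, with replicate 69 the highest and replicate 68 just under the top vehicle value. The log2 fold change was 0.57 (SE 0.14, interval 0.28 to 0.87, 1.49-fold) with an adjusted p of 0.0578 from edgeR. Sgk1 passed the threshold with DESeq2 (adjusted p 0.00302), with no filter on low counts (0.0219) and without Heart Cmpd60 replicate 68 (0.0411). Over the refits that left out 1 heart library the adjusted p ran from 0.0411 to 0.118 and the log2 fold change from 0.38 to 0.64.

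In kidney Sgk1 was 50.4 to 81.2 CPM with Cmpd60 (median 69.2) and 46.4, 49.0, 59.6, 62.2 and 64.1 CPM with vehicle. Of the 6 Cmpd60 kidneys, 4 lay above all vehicle kidneys, and the log2 fold change was 0.26 (interval -0.02 to 0.53, adjusted p 0.475). In the brains the estimates for Sgk1 were -0.02 in the aged mice (interval -0.38 to 0.34), 0.13 in APPSWE mice (-0.21 to 0.48) and -0.00039 in AD-control mice (-0.32 to 0.32). The aged estimate of Sgk1 was -0.41 (adjusted p 0.422) with library total as a covariate and 0.13 with library quality weights. The aged brains had wide ranges, 46.7 to 107 CPM with Cmpd60 and 48.6 to 87.4 CPM with vehicle.

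Zbtb16 encodes PLZF, a zinc finger transcription factor strongly induced by glucocorticoids in many cells. Its level in Kidney vehicle was 3.67, 5.01, 7.53, 9.69 and 10.5 CPM, and in Kidney Cmpd60 it ran from 2.51 through a median of 3.49 to 7.65 CPM. Of the 6 Cmpd60 kidneys, 5 lay below the vehicle median and 3 below every vehicle kidney. Replicate 52 had 7.65 CPM, inside the vehicle range. The log2 fold change was -0.89 (SE 0.32, interval -1.57 to -0.22, adjusted p 0.290).

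In Heart Cmpd60 Zbtb16 had 56.7, 87.9, 95.03, 130 and 145.4 CPM, and in Heart vehicle it ran from 51.8 to 105 CPM with a median of 66.6. The log2 fold change there was 0.52 (SE 0.21, interval 0.08 to 0.96, adjusted p 0.263). The groups overlapped, and 4 of 5 Cmpd60 hearts exceeded the vehicle median. In the brains its estimates were 0.10, -0.08 and 0.02 for aged, APPSWE and AD-control mice, with all 3 intervals spanning 0.

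Errfi1 encodes an inhibitor of the epidermal growth factor receptor that glucocorticoids and growth factors induce. The Kidney Cmpd60 values spread from 261 to 531 CPM around a median of 359, and the Kidney vehicle values were 315, 372, 391, 398 and 410 CPM. Cmpd60 kidneys lay on both sides, with 2 above and 2 below every vehicle kidney. Its log2 fold change was 0.02 (interval -0.32 to 0.37). Elsewhere Errfi1 estimates ran from -0.11 in APPSWE brain to 0.24 in heart, and the heart interval was -0.09 to 0.56. The heart estimate of Errfi1 was 0.06 without Heart Cmpd60 replicate 69 and 0.35 without replicate 68. In APPSWE brain it was -0.33 with genes detected as a covariate. In aged brain its interval, -0.09 to 0.15, was the narrowest of its 5.

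Cebpd encodes a transcription factor of inflammation and fat cell formation, early induced by glucocorticoids. In Heart Cmpd60 it read 9.29, 13.8, 14.7, 17.7 and 21.7 CPM, against 6.03 to 16.2 CPM in Heart vehicle (median 10.7). The Cmpd60 hearts were above the vehicle median in 4 of 5, and the log2 fold change was 0.47 (SE 0.22, interval -0.01 to 0.94, adjusted p 0.379). In AD-control mice Cebpd was 1.67, 1.89, 3.63, 5.12 and 9.87 CPM with Cmpd60 and 1.02, 2.78, 3.02, 3.14 and 3.44 CPM with vehicle. The highest is replicate s152 and the lowest is vehicle replicate s155, both libraries with few genes detected. The log2 fold change of 0.74 (SE 0.58) became 0.14 without replicate s152 and was -0.13 with limma-voom and library quality weights. In kidney and APPSWE brain the estimates were 0.24 (interval -0.44 to 0.91) and -0.41 (interval -1.68 to 0.85). The kidney estimate of Cebpd turned to -0.12 without Kidney Cmpd60 replicate 55 and to -0.14 with library quality weights. Its APPSWE estimate was -0.15 without APPSWE vehicle replicate s140 and -0.07 with genes detected as a covariate.

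Mt1 and Mt2 encode metallothioneins, small proteins that bind zinc and copper and are induced by metals, oxidative stress and glucocorticoids. They are close paralogs, so reads that align to both genes may be missing from the counts or misplaced between them. In Heart Cmpd60 Mt2 was 63.7, 64.1, 78.0, 79.9 and 91.8 CPM, and in Heart vehicle it ran from 28.4 through a median of 34.3 to 41.2 CPM. The groups did not overlap: every Cmpd60 heart lay above every vehicle heart. Mt2 rose by a log2 fold change of 1.13 (SE 0.12, interval 0.89 to 1.38, 2.19-fold), higher in 5 of 5 Cmpd60 hearts, with an adjusted p of 0.000368. With 1 heart library left out at a time its log2 fold change stayed between 1.06 and 1.21 and its adjusted p between 0.000131 and 0.00224.

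Mt1 in Heart Cmpd60 was 136, 141.9, 166, 181 and 182 CPM, and in Heart vehicle it ran from 75.0 through 110 (median) to 122 CPM. Again no Cmpd60 heart overlapped the vehicle group. The rise was 0.58 in log2 (SE 0.11, interval 0.34 to 0.82, 1.498-fold), higher in 5 of 5, with an adjusted p of 0.0232. Without Heart Cmpd60 replicate 69 its adjusted p was 0.0730 at a log2 fold change of 0.54, so that 1 member (Mt2) remained called, and the adjusted p over these refits ran from 0.0229 to 0.0730. Beside these changes the sum of 3 endothelial markers (Pecam1 the most abundant) was 611 to 764 CPM in Heart Cmpd60 and 533 to 630 CPM in Heart vehicle. None of the 3 was called (Cdh5, log2 fold change 0.19, adjusted p 0.122), and their part in the result was not tested. The cardiomyocyte sums of the heart groups overlapped.

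In kidney Mt1 was 31.98, 33.5, 42.3, 48.3 and 56.1 CPM with vehicle and 26.8, 68.3, 79.7, 81.6, 85.3 and 130 CPM with Cmpd60. Mt2 was 17.3, 17.9, 22.4, 30.0 and 37.8 CPM with vehicle and 15.7, 40.1, 49.5, 56.4, 67.4 and 109 CPM with Cmpd60. For both genes 5 of 6 Cmpd60 kidneys lay above all vehicle kidneys, and replicate 52 lay below all of them. The log2 fold change was 0.89 for Mt1 (SE 0.28, interval 0.30 to 1.49, adjusted p 0.225) and 1.17 for Mt2 (SE 0.36, interval 0.41 to 1.93, adjusted p 0.216). Without Kidney Cmpd60 replicate 52 both passed the threshold, Mt1 at a log2 fold change of 1.07 (adjusted p 0.0178) and Mt2 at 1.37 (adjusted p 0.0367). Over all refits with 1 kidney library left out the adjusted p ran from 0.0178 to 0.439 for Mt1 and from 0.0367 to 0.424 for Mt2.

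Kidney replicate 52 was also the highest of the Cmpd60 kidneys for Nr3c1 and Zbtb16, inside the vehicle range. For Ttr it stayed with the other Cmpd60 kidneys. Ttr, the transthyretin gene, was lower in all 6 Cmpd60 kidneys (11.8 to 25.3 CPM) than in all 5 vehicle kidneys (28.7 to 57.9 CPM), with 15.4 CPM in replicate 52. Ttr fell by 1.43 on the log2 scale (adjusted p 0.00679). It was read as a choroid plexus marker and not as a glucocorticoid gene, and no other gene of any list was called in kidney. The other markers of its list were Kcnj13, at -1.51 (adjusted p 0.365), and Folr1, at -0.09 (adjusted p 0.808). Proximal tubule marker sums were 7783 CPM in replicate 52, the highest of all kidneys, and 2887 CPM in replicate 55, the lowest, which had the highest Mt1 and Mt2. Replicate 55 also had the lowest sum of 3 thick ascending limb markers, 3655 CPM against 5624 to 7540 CPM in the other kidneys, and the lowest sums of the collecting duct (281 CPM) and endothelial (117 CPM) markers. It had counts in the fewest genes of any kidney, 18512. Without it the kidney estimates were 0.70 for Mt1 (adjusted p 0.301) and 0.88 for Mt2 (adjusted p 0.284). Slc34a1, the most abundant proximal tubule marker, had a log2 fold change of -0.48 (adjusted p 0.359), with Lrp2 at 0.01 (adjusted p 0.988) and Slc5a12 at -0.31 (adjusted p 0.467). The part of these markers in the metallothionein values was not tested.

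In aged brain Mt1 spanned 72.2 to 140 CPM with Cmpd60 and 73.0 to 128 CPM with vehicle. Its log2 fold change was 0.01 (interval -0.28 to 0.29), and that of Mt2 was 0.11 (interval -0.14 to 0.36). In APPSWE vehicle the Mt1 values were 38.9, 71.2, 76.5, 93.3 and 178 CPM, a wide range topped by replicate s140, and in APPSWE Cmpd60 they were 48.7, 69.9, 82.0 and 119 CPM. The APPSWE estimates were -0.24 for Mt1 (interval -0.89 to 0.41) and -0.22 for Mt2 (-0.88 to 0.44), and the AD-control estimates were -0.07 (-0.69 to 0.54) and -0.09 (-0.71 to 0.53). Without replicate s140 the APPSWE estimates turned to 0.16 for Mt1 and 0.04 for Mt2, and with genes detected as a covariate they were 0.13 and 0.16. The lowest APPSWE estimates with 1 library left out were -0.54 for Mt1 and -0.40 for Mt2. The AD-control estimates of Mt1 and Mt2 turned as well, to 0.11 and 0.15 without vehicle replicate s150, to 0.06 and 0.08 without Cmpd60 replicate s153 and to 0.08 and 0.09 with genes detected as a covariate. They were -0.31 and -0.33 without Cmpd60 replicate s152.

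**Figure D3:**
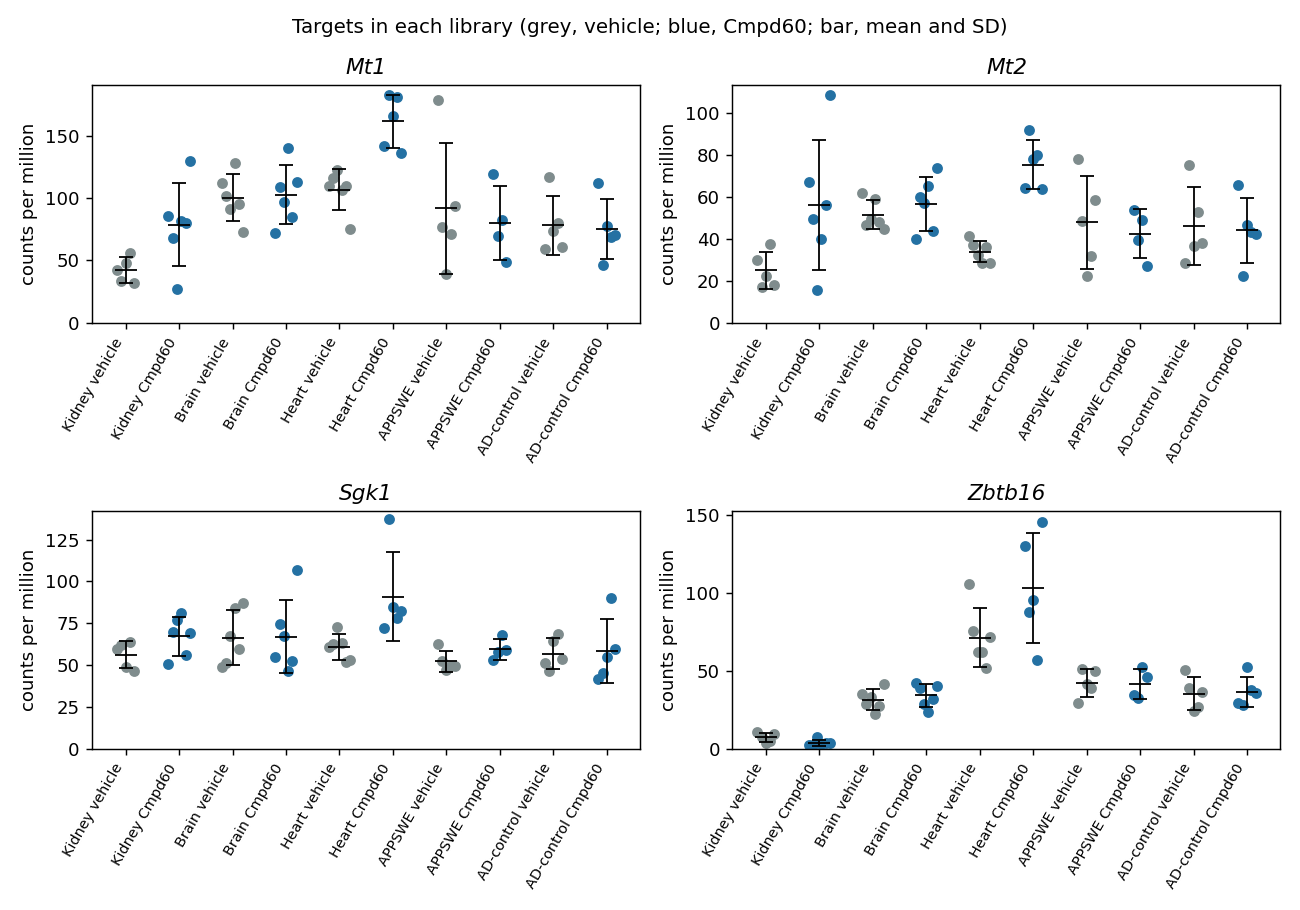
CPM of Mt1, Mt2, Sgk1 and Zbtb16 in every assigned library (grey, vehicle; blue, Cmpd60; bar, mean and SD). The Cmpd60 hearts sit at 136 to 182 CPM for Mt1 and 63.7 to 91.8 CPM for Mt2, all above the vehicle hearts, and 1 Cmpd60 kidney sits at the bottom for both.

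Differences between tissues were tested on the Cmpd60 effects themselves, in a fit of all 34 aged libraries. The fit treated them as 34 separate mice, although organs share mice that the labels do not identify. Its standard errors and p-values take no account of that sharing. Kidney against aged brain gave 0 of 10 called by edgeR, against 0.0885% of 27105 genes, and 4 of 10 at unadjusted p below 0.05, against 10%. limma-voom and DESeq2 called 0 of 10 there. The 4 were Nr3c1 (difference -0.25, adjusted p 0.417), Zbtb16 (-1.04, adjusted p 0.300), Mt1 (0.86, adjusted p 0.305) and Mt2 (1.04, adjusted p 0.285). Without Kidney Cmpd60 replicate 52, Mt1 (1.04, adjusted p 0.0333) and Mt2 (1.23, adjusted p 0.0343) were called. With each aged kidney or brain library left out in turn, the adjusted p ran from 0.0333 to 0.513 for Mt1 and from 0.0343 to 0.513 for Mt2.

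Kidney against heart gave 0 of 10 called by edgeR and limma-voom, against 0.350% of all genes, and 1 at unadjusted p below 0.05, against 11.7%. That gene was Zbtb16, with opposite signs in the 2 organs and a difference of -1.45 (SE 0.37, interval -2.19 to -0.70, adjusted p 0.0656). DESeq2 called it (adjusted p 0.0158), among 515 genes it called in all. It also passed in edgeR without Heart Cmpd60 replicate 71 (0.0353), Heart vehicle replicate 62 (0.0398), Kidney Cmpd60 replicate 52 (0.0106) or Kidney vehicle replicate 47 (0.0412). For Mt2 the difference was 0.02 with an interval of -0.71 to 0.76. It ran from -0.27 to 0.22 with 1 library left out and from -0.30 to 0.03 under the other alternatives.

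Aged brain against heart gave 0 of 10 called by edgeR, limma-voom and DESeq2, against 0.0517% of all genes, and 2 at unadjusted p below 0.05, against 9.08%. They were Mt2 (-1.02, interval -1.73 to -0.30, adjusted p 0.351) and Sgk1 (-0.57, interval -1.08 to -0.07, adjusted p 0.480). So although Mt2 was called in heart and not in brain, the difference between those organs did not pass the threshold in this fit. The fit estimates the spread of each gene over kidney, brain and heart together. For Mt2 the SE of this difference was 0.35, while the separate fits gave 0.12 in heart, 0.12 in aged brain and 0.36 in kidney. Scattered kidney values thus enter the test, which cannot decide whether the Mt2 effect differs between brain and heart.

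The genotype by Cmpd60 difference in the cohort gave 0 of 10 called by edgeR, limma-voom and DESeq2, against 0% of all genes, and 0 at unadjusted p below 0.05, against 5.09%. The estimates ran from -1.15 for Cebpd (interval -2.89 to 0.59) to 0.22 for Nr3c2 (interval -0.33 to 0.78). Both moved with single libraries. The Cebpd difference was -0.55 without AD-control Cmpd60 replicate s152 and -0.03 with library quality weights. The Nr3c2 difference was 0.04 without APPSWE Cmpd60 replicate s141 and 0.47 without s152. For Fkbp5 the difference was 0.16 (interval -0.29 to 0.62), and for Nr3c1 it was -0.11 (interval -0.35 to 0.14). With 1 library left out the Fkbp5 difference ran from 0.06 to 0.27 and that of Nr3c1 from -0.13 to -0.06.

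Across the vehicle groups the members differed in where they were highest, given here as medians in CPM and with no test. Nr3c1 was highest in heart (173), then kidney (141), then the aged, APPSWE and AD-control brains (125, 124 and 121). Heart and kidney each stood clear of the next group, and the brain groups overlapped. Nr3c2 was highest in AD-control brain (65.04), then APPSWE brain (63.9), aged brain (52.9), heart (39.0) and kidney (26.9). There the kidney alone was clear of its neighbour. Fkbp5 was highest in kidney (111) and clear of heart (70.9), which overlapped APPSWE brain (46.2).

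Errfi1 stood at 391 in Kidney vehicle and 35.8 in the next group, APPSWE vehicle, with no overlap. Zbtb16 was highest in heart (66.6), clear of APPSWE brain (41.4), and lowest in kidney (7.53), clear of aged brain (30.7). Sgk1 medians lay between 49.4 and 63.5 with overlap between all neighbours in their order. The order of the Mt2 medians was APPSWE brain (48.8), aged brain (48.8), AD-control brain (38.1), heart (34.3) and kidney (22.4), with each neighbour overlapping the next. For Mt1 kidney was lowest (42.3) and clear of AD-control brain (73.9). Cebpd was highest in heart (10.7) and lowest in AD-control brain (3.02), and its neighbours overlapped. Tsc22d3 was lowest in kidney (34.9) and highest in heart (75.7), and its neighbours also overlapped.

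Variation between mice of the same group was described with Fkbp5 as the reference, by correlating log2 CPM after subtraction of group means. Of 36 relations (9 members in each of kidney, aged brain, heart and the cohort), 0 passed an adjusted p of 0.05 by Pearson r or Spearman rho under 100000 permutations within groups, and 4 had an unadjusted permutation p below 0.05. The highest in absolute size was Errfi1 in kidney (n = 11 libraries, r 0.756, permutation p 0.0347, adjusted p 0.312), with rho 0.627 (permutation p 0.0808, adjusted p 0.569). The r fell to 0.416 without the 2 libraries farthest from the median of Fkbp5, so it rests on those libraries.

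In the cohort of 19 libraries Zbtb16 had r 0.739 (permutation p 0.00238, adjusted p 0.0857) and rho 0.730 (permutation p 0.00307, adjusted p 0.0553), and r 0.702 without the 2 farthest libraries. Tsc22d3 in the cohort had r 0.598 (permutation p 0.0115, adjusted p 0.183) and rho 0.691 (permutation p 0.00177, adjusted p 0.0553), and r 0.627 without them. In heart Tsc22d3 ran the other way, with r -0.751 (permutation p 0.0152, adjusted p 0.183) and rho -0.809 (permutation p 0.00894, adjusted p 0.107), and r -0.59 without 2 libraries. The median r with Fkbp5 was -0.03 in kidney, 0.20 in aged brain, -0.21 in heart and 0.17 in the cohort.

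Over the 34 aged libraries and 12144 genes with at least 1 CPM on average in each tissue, genes whose residuals followed Fkbp5 closely included Zfp942 (r 0.670), Nrg1 (0.642), Pgam1 (0.605) and Ttc26 (0.597). Among the other members the highest was Errfi1 (r 0.0982) and the lowest Tsc22d3 (r -0.39). These are descriptions across libraries that share tissue, cohort and in part mice, with no test.

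The other genes of the pathway were read from 5 lists. Their counts at unadjusted p below 0.05 stand against the same over all genes tested. That was 11.3% in kidney (1181 higher and 1165 lower), 13.8% in aged brain (1788 and 1580) and 13.5% in heart (1417 and 1209). In the cohort it was 9.46% in APPSWE brain, where higher genes (1637) outnumbered lower ones (558), and 3.67% in AD-control brain (567 and 285). For the differences it was 1034 higher and 1676 lower for kidney against aged brain, 1392 and 1786 for kidney against heart, 1297 and 1165 for aged brain against heart, and 816 and 365 for genotype by Cmpd60.

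Of 20 further glucocorticoid-induced genes, all tested in each comparison, edgeR called 0 in any. In kidney 5 of them had positive and the rest negative estimates. Their median log2 fold change was -0.17, and at unadjusted p below 0.05 there were 1 higher and 4 lower. The smallest p belonged to Pik3r1 (log2 fold change -0.29, adjusted p 0.107), a regulatory subunit of phosphoinositide 3-kinase, and to Klf9 (-0.27, adjusted p 0.216), a transcription factor. In heart the median was -0.02 with 1 higher and 3 lower at unadjusted p below 0.05, among them Arrdc2 (-0.58, adjusted p 0.248) and Lpin1 (0.25, adjusted p 0.264).

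In aged brain the median of that list was 0.06, with 2 higher and 0 lower at unadjusted p below 0.05, Pdk4 (0.22, adjusted p 0.219) and Angptl4 (0.34, adjusted p 0.357). In APPSWE brain it was -0.02, and Dusp1, a phosphatase gene, was lower (-0.54, adjusted p 0.459) at unadjusted p below 0.05. In AD-control brain it was 0.06 and 0 genes reached that level. The genotype by Cmpd60 difference was -0.89 for Dusp1 (adjusted p 0.944) and -0.66 for Ddit4 (adjusted p 0.974), the 2 genes of the list below an unadjusted p of 0.05 there, and edgeR called 0.

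Between tissues edgeR called 0 genes of that list in each difference. Kidney against aged brain had 0 higher and 4 lower at unadjusted p below 0.05, first Pik3r1 (-0.31, adjusted p 0.224) and Dusp1 (-0.64, adjusted p 0.246). Kidney against heart had 0 higher and 3 lower, first Pik3r1 (-0.26, adjusted p 0.264) and Angptl4 (-0.83, adjusted p 0.289). Aged brain against heart had 2 higher and 0 lower, Arrdc2 (0.85, adjusted p 0.304) and Pdk4 (1.02, adjusted p 0.444).

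Of 15 receptor chaperone, cofactor and steroid metabolism genes, 1 was called in heart by edgeR, against 1.18% of all heart genes, and 0 in the other 4 Cmpd60 comparisons. The called gene was Hsd11b1, whose enzyme regenerates active corticosterone from its inert form. In Heart Cmpd60 it had 43.9, 55.2, 37.3, 33.7 and 43.3 CPM in replicates 68 to 72, and in Heart vehicle from 22.2 to 33.8 CPM. Cmpd60 replicate 71 fell just under the highest vehicle heart. Hsd11b1 rose by 0.61 in log2 (SE 0.12, adjusted p 0.0259). Leaving out Heart Cmpd60 replicate 69 or 72, or Heart vehicle replicate 64, 65, 66 or 67, put the adjusted p above the threshold (0.0730, 0.0776, 0.0539, 0.0526, 0.0501 and 0.0610), and over all such refits it ran from 0.0127 to 0.0776. In kidney Hsd11b1 had a log2 fold change of 0.51 (SE 0.16, adjusted p 0.240), and Hsd11b2, the enzyme that inactivates corticosterone in the collecting duct, 0.28 (SE 0.10, adjusted p 0.280). At unadjusted p below 0.05 this list had 2 higher and 0 lower in kidney, 1 higher and 4 lower in heart, 0 higher and 2 lower in aged brain, 0 higher and 5 lower in APPSWE brain and 0 in AD-control brain. The chaperones Hsp90aa1 (-0.27, adjusted p 0.444) and Stip1 (-0.35, adjusted p 0.452) had the smallest p in APPSWE brain, and Fkbp4 (-0.18, adjusted p 0.282) and Bag1 (-0.15, adjusted p 0.341) in aged brain.

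For this second list too edgeR called 0 in each difference between tissues. At unadjusted p below 0.05 kidney against aged brain had 2 higher and 1 lower, with Hsd11b1 (0.50, adjusted p 0.389) and Ncoa2 (-0.33, adjusted p 0.439) first. Kidney against heart had 4 higher and 1 lower, with Hsp90ab1 (0.36, adjusted p 0.129) and Hspa8 (0.31, adjusted p 0.241) first. Aged brain against heart had 2 higher and 1 lower, with Hsd11b1 (-0.62, adjusted p 0.304) and Hspa8 (0.26, adjusted p 0.467) first.

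Of 9 aldosterone-regulated sodium and potassium handling genes, 6 were tested in heart and 1 of these was called, again against 1.18% of all heart genes. It was Atp1b1, a subunit of the sodium pump, with 405, 474, 373, 437 and 430 CPM in the Cmpd60 hearts and 296 to 341 CPM in the vehicle hearts, with no overlap. Atp1b1 rose by 0.40 in log2 (SE 0.07, adjusted p 0.0150), and the adjusted p was 0.0547 without Heart Cmpd60 replicate 72 and ran from 0.00649 to 0.0547 over such refits. In kidney all 9 were tested, 0 were called by edgeR and 1 was higher at unadjusted p below 0.05 (Scnn1b, a sodium channel subunit, 0.25, adjusted p 0.277). In aged brain 0 of 8 were called and 2 were higher at unadjusted p below 0.05, Nedd4l (0.18, adjusted p 0.209) and Slc12a3 (0.77, adjusted p 0.360). In AD-control brain 0 of 8 were called by edgeR and 1 was higher at unadjusted p below 0.05. It was Scnn1b (4.60, adjusted p 0.999), at a mean of 0.842 CPM with Cmpd60 and 0.0335 CPM with vehicle, so near 0 that the size of the estimate means little. In APPSWE brain 0 of 8 were called and 0 reached that level.

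Between kidney and heart edgeR called 0 of the aldosterone list, with 2 higher and 3 lower at unadjusted p below 0.05, and between aged brain and heart 0, with 2 higher and 2 lower. Scnn1g and Atp1b1 came first in both, at -5.73 (adjusted p 0.141) and -0.38 (adjusted p 0.149) for kidney and at -5.64 (adjusted p 0.297) and -0.34 (adjusted p 0.316) for brain. Scnn1g had too few counts in heart to be tested there alone, so its estimates are loose. Kidney against aged brain had 0 at either level.

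Of 6 metal handling genes, 5 were tested, and edgeR called 0 in each of the 5 Cmpd60 comparisons. In heart 2 were higher at unadjusted p below 0.05, the zinc importer Slc39a14 (0.27, adjusted p 0.217) and the zinc exporter Slc30a1 (0.27, adjusted p 0.242), and 4 of 5 had positive estimates. In kidney 4 of 5 were positive as well, while the one past unadjusted p of 0.05, Slc39a10, was lower (-0.20, adjusted p 0.316). In aged brain Slc30a1 was lower at that level (-0.13, adjusted p 0.344), and positive estimates numbered 1 of 5 there, 2 of 5 in APPSWE brain and 0 of 5 in AD-control brain. Between tissues edgeR called 0 of the metal list. At unadjusted p below 0.05 Slc39a10 was lower for kidney against aged brain (-0.34, adjusted p 0.409), and Slc30a1 (-0.37, adjusted p 0.436) and Slc39a14 (-0.26, adjusted p 0.545) were lower for aged brain against heart. Kidney against heart had 0.

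Of 10 inflammatory genes that glucocorticoids repress, edgeR called 0 in each comparison (7 were tested in the cohort). In heart 9 of 10 had positive estimates. Their median log2 fold change was 0.40, against -0.0014 over all genes tested, and 3 were higher at unadjusted p below 0.01, a level that 5.34% of all heart genes passed in either direction. The smallest p belonged to Sele (0.96, adjusted p 0.0990), an endothelial adhesion molecule at a mean of 4.70 CPM with Cmpd60 and 2.39 CPM with vehicle, and to the chemokine Ccl2 (0.84, adjusted p 0.113). Beside them all 3 endothelial markers had positive estimates in heart (Cdh5 0.19, Cldn5 0.17, Pecam1 0.16). Of the 3 leukocyte markers, Cd68 was at 0.32 (adjusted p 0.344), Ptprc at -0.08 (adjusted p 0.883) and Cd3e at -1.91 (adjusted p 0.0755), the last at a mean of 0.153 CPM with Cmpd60 and 0.584 CPM with vehicle. Leukocyte marker sums overlapped, at 28.9 to 34.05 CPM and 24.1 to 41.5 CPM. The part of these cells in the list's values was not tested. In kidney 6 of 10 were positive (median 0.26), with Tnf (1.22, adjusted p 0.395) at a mean of 0.631 CPM against 0.271 CPM. In aged brain 7 of 10 were positive (median 0.23), with Ptgs2 (0.37, adjusted p 0.198) the only one below an unadjusted p of 0.05. In APPSWE brain 2 of 7 were positive (median -0.94) and in AD-control brain 4 of 7 (median 0.17), with 0 genes below an unadjusted p of 0.05 in either. Of the differences, kidney against aged brain had 1 gene at that level, Cxcl1 (2.55, adjusted p 0.499), the others had 0, and edgeR called 0 in each.

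Promoter windows from RefSeq, 250 bases before to 50 after each start on GRCm38.p6, were available for 7 of the 10 members, with 15 windows in all. Nr3c1, Zbtb16 and Cebpd have none in the table. The full glucocorticoid response element was searched as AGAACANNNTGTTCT, which reads the same on both strands. It occurs in 3 of 32851 promoters (0.00913%), and 1 of these is a window of Sgk1. Its 6-letter arm AGAACA, or TGTTCT on the opposite strand, is in 18.97% of promoters and in 4 of the 15 member windows. The Sgk1 window at chr10:21993640-21993939 (plus strand) is printed because it is the only member window with the full element, here in capitals, which begins 189 bases before the start.
Sgk1: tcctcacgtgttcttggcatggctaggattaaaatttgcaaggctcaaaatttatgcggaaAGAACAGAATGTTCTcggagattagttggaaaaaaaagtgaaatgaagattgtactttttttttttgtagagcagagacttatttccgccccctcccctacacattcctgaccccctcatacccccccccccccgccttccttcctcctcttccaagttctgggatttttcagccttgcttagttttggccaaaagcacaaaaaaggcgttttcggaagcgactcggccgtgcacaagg

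The core of the metal response element was searched as TGCACNC or TGCGCNC on both strands. It is in 25.7% of all promoters, and 3 or more matches are in 1.97%. Of the 15 member windows 4 hold it, 1 each of Nr3c2, Sgk1, Mt1 and Mt2. Mt1 has 3 matches and Mt2 has 4, of which 2 are on the opposite strand. Their windows, at chr8:94178839-94179138 for Mt1 and chr8:94172368-94172667 for Mt2 (both plus strand), are shown because these are the members that moved together in heart, with matches in capitals.
Mt1: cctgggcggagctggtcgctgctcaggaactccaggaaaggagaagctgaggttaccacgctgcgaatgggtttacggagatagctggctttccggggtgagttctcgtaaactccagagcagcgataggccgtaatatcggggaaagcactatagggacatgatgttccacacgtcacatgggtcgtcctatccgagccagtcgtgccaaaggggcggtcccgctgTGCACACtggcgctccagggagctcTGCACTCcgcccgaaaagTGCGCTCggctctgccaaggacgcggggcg
Mt2: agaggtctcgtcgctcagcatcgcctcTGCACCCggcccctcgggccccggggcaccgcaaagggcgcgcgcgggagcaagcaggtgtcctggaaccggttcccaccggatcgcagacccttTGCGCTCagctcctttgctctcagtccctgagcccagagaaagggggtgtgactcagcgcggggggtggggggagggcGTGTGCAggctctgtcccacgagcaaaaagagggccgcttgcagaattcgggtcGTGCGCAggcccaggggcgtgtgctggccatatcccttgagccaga

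Neither metallothionein window holds the AGAACA arm, which says only that these letters are not in these 300 bases. A match is a description of the sequence and not a measured binding site.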

How the data were processed

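RNA was sequenced from 54 libraries; values are the HTSeq read counts per gene that the authors deposited, made with FastQC, Trimmomatic 0.32, HISAT2 2.1.0 and HTSeq 0.11.0 (genome build not given in the sources used here). Summary lines outside genes took 15.4 to 22.1% of counts and were dropped. A gene was tested when 3 or more fitted libraries each held over 2 of its counts, with the edgeR 4.0.16 quasi-likelihood test (TMM, R 4.3.3, two-sided, Benjamini-Hochberg over all genes tested, called at adjusted p below 0.05), each aged tissue alone, the cohort with its 4 groups, tissue differences over all aged libraries. Library totals and median are given above. The fits were tested on simulated data. No 2 libraries of a group were near-duplicates (lowest chi-square per degree of freedom 4.48).

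Alternatives were limma-voom (limma 3.58.1), DESeq2 1.42.0, DESeq2 size factors in edgeR, 2 other filters (none; at least 10 counts), library quality weights, each library left out in turn, and for the cohort library s139 in either group, only the 2 groups compared, and genes detected as a covariate; for aged brain, library total as a covariate; for co-variation, a prior count of 0.5 in place of 2. Permutations shuffled libraries within groups. Figures were drawn with matplotlib 3.10.9 under Python 3.11.15.

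List counts are from edgeR alone. Members and lists were chosen with earlier results of these data known. All 10 members are named; from each other list a gene is named when called, or else the 2 with the smallest unadjusted p if below 0.05 (of the marker lists only genes beside a member's result are printed); other features named were chosen after their values were seen. Of 99 other list symbols, 98 had an ID (Hbb-bs had none).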

Additional observations from a re-analysis of the deposited data

Results flagged for a closer look

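In 100 groups of 4 to 6 libraries (10 genes in 10 groups), 8 had a highest or lowest library far from the others by Dixon's test on CPM. Chance flags about 1 in 20 groups. Nr3c2 was 105 CPM in AD-control Cmpd60 replicate s152, with the next at 64.3. Tsc22d3 was 79.8 CPM in AD-control vehicle replicate s149, with the next at 64.9. Sgk1 was 137 CPM in Heart Cmpd60 replicate 69, with the next at 85.0. Zbtb16 was 7.65 CPM in Kidney Cmpd60 replicate 52, with the next at 3.88. Errfi1 was 24.0 CPM in APPSWE Cmpd60 replicate s141, the lowest, with the next at 33.9, and 16.9 CPM in AD-control Cmpd60 replicate s152, the lowest, with the next at 34.4. Mt1 was 75.0 CPM in Heart vehicle replicate 67, the lowest, with the next at 106. Cebpd was 1.02 CPM in AD-control vehicle replicate s155, the lowest, with the next at 2.78. Replicates s141, s152 and s155 are among the 5 cohort libraries with few genes detected, whose part in these values was not tested.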

How the results depend on the processing

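Each of 90 member results (10 genes, 9 comparisons) was recomputed under the alternatives, 2060 values in all. Of these, 2047 stayed on the same side of the threshold, 12 passed it newly and 1 no longer did; the cause was not tested. No called estimate changed sign, while 143 uncalled values in 37 results did. The number of members called ran, with a library left out, from 0 to 2 in kidney, 1 to 3 in heart, 0 to 2 for kidney against aged brain and 0 to 1 for kidney against heart; DESeq2 gave 1 for kidney against heart. In aged brain and the cohort comparisons it was 0 throughout, and also 0 for aged brain against heart. Shares of all genes called are given above for the full fits only. limma-voom moved the median log2 fold change of all genes in APPSWE brain by 0.12, to 0.15. No paired analysis was possible because replicate numbers are unique across groups, and the interaction could not be run with only the 2 groups compared. With at most 6 libraries a group, wide intervals such as those of Cebpd in the cohort, at 1.02 to 9.87 CPM, limit what can be seen.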

Other observations

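Library s139, in no group, had 133 CPM of Nr3c1, 50.5 of Nr3c2, 56.8 of Fkbp5, 60.3 of Tsc22d3, 32.4 of Sgk1, 40.4 of Zbtb16, 34.3 of Errfi1, 92.1 of Mt1, 72.1 of Mt2 and 2.60 of Cebpd. Its Sgk1 was below that of every assigned cohort library, the lowest of which had 41.5 CPM.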
